A study of Mus musculus with 7 samples.

Results

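The regions described here are those that ChIP-seq called at 10 genes of early T cell activation: Egr1, Egr2 and Egr3, Nr4a1, Nr4a2 and Nr4a3, Nfatc1, Nfatc2 and Nfatc3, and Myc. A region was taken when its midpoint lay in the gene body or within 20 kb of it, a span called the window of the gene. Of the 4934 Runx3-bound regions 12 were chosen in this way, and of the 76705 H3K4me1-marked regions 109, or 121 of 81639 regions in all. Chromatin came from resting splenic CD8-TC of wild-type ICR mice, collected from 18 mice, per immunoprecipitation or in all, which the labels leave unsaid, and selected on anti-CD8 magnetic beads to a purity of about 95% or more. For Runx3 an in-house rabbit polyclonal antibody was used in 2 biological repeats that gave 3 libraries. H3K4me1 was precipitated with a monoclonal antibody (2 libraries) and the control with serum of non-immunised rabbits, called NIS (2 libraries). All groups shared the same genotype and had no treatment. The repeats of an antibody were joined before peaks were called against NIS, so each antibody gave 1 list of positions with no value per library, no height and no read count. No value below therefore has a replicate error, the depth behind a region is unknown, and no test between groups was possible. Intervals on shares are 95% Wilson intervals, which cover counting error alone.

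Runx3 is a transcription factor of cytotoxic lymphocytes that binds the RUNX motif in DNA, and monomethylation of histone H3 at lysine 4 (H3K4me1) marks enhancers and the flanks of promoters. When the T cell receptor is engaged, calcium enters the cell and the phosphatase calcineurin frees NFAT proteins, encoded by Nfatc1, Nfatc2 and Nfatc3, to enter the nucleus. The EGR zinc-finger factors and the NR4A orphan nuclear receptors are immediate early genes that are transcribed within a short time of that signal, and both families take part in effector responses and in their restraint. Myc drives the growth and metabolism of dividing T cells. The lists show where Runx3 and H3K4me1 were found around these genes in resting CD8-TC.

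The DNA at the centre of the Runx3-bound regions is shown for 5 genes, and these regions differed in whether a RUNX motif stood there. Sequences of the other bound genes are not reported here, so the 5 do not stand for all 12 regions. Of the 12, 8 held a RUNX motif in the centre. Each sequence is the 200 bp around the midpoint in the mm9 build, read 5′ to 3′ on the strand of the gene. In the regions of Egr2 (chr10:66999945-67000144, plus strand) and Nr4a3 (chr4:48087790-48087989, plus strand), capitals mark the RUNX motif, which is 1 of the 4 words TGTGGT or TGTGGC or TGCGGT or TGCGGC on either strand, so that ACCGCA and GCCACA are motifs of the opposite strand.
Egr2: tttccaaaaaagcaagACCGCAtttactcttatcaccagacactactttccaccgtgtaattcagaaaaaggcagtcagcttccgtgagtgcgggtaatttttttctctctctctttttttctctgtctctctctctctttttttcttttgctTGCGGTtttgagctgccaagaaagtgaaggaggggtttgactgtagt
Nr4a3: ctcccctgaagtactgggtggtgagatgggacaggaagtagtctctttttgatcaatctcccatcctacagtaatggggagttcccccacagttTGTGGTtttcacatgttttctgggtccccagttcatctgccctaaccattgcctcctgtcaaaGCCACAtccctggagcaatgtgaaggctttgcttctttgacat
The centres of the regions at Nr4a1 (chr15:101089009-101089208, plus strand), Nfatc2 (chr2:168416321-168416520, minus strand) and Nfatc3 (chr8:108578217-108578416, plus strand) held none of these words. There, capitals mark the ETS motif, searched on both strands as AGGAAG or AGGAAA or CGGAAG or CGGAAA, which is bound by the ETS family of factors.
Nr4a1: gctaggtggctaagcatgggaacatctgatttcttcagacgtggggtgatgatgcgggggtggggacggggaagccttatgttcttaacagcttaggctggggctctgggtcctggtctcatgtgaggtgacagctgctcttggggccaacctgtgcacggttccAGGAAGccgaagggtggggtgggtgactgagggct
Nfatc2: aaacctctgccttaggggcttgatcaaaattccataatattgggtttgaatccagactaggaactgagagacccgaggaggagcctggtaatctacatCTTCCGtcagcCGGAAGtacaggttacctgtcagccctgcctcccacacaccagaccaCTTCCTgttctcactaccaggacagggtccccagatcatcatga
Nfatc3: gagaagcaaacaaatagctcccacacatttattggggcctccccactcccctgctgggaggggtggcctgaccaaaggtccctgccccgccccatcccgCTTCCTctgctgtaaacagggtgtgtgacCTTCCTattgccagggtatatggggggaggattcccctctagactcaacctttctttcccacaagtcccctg
Egr2 and Nr4a3 held 2 RUNX motifs each in this window. Nfatc2 held 3 ETS motifs within its central window, Nfatc3 held 2 and Nr4a1 held 1.

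Runx3-bound regions were found at 8 of the 10 genes and H3K4me1-marked regions at all 10. Nfatc1 held 4 Runx3-bound regions, Egr1 held 2, and Egr2, Egr3, Nr4a1, Nr4a3, Nfatc2 and Nfatc3 held 1 each. Nr4a2 and Myc held 0. For comparison, the same window was drawn around each of the 22350 protein-coding genes of the annotation. A Runx3-bound region was present at 19.8% of them, 2 or more at 4.67% and an H3K4me1-marked region at 73.6%. A Runx3-bound region that overlapped H3K4me1 was present at 17.5% of all genes and at 7 of the 10, the exception among the bound genes being Egr2. Every one of the 10 windows held at least 4 H3K4me1-marked regions, and among the 11484 genes with as many, 32.7% held Runx3. Long windows hold more regions. Of the genes with windows up to 60 kb, 15.2% held Runx3, against 4 of the 6 genes in that class here. Of those over 100 kb, 30.3% held Runx3, against all 3 NFAT genes. The classes by number of marked regions and by window length were chosen after the values were seen. The 10 genes were chosen with earlier results of these data known, so these counts are a description and were not tested.

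**Figure D1:**
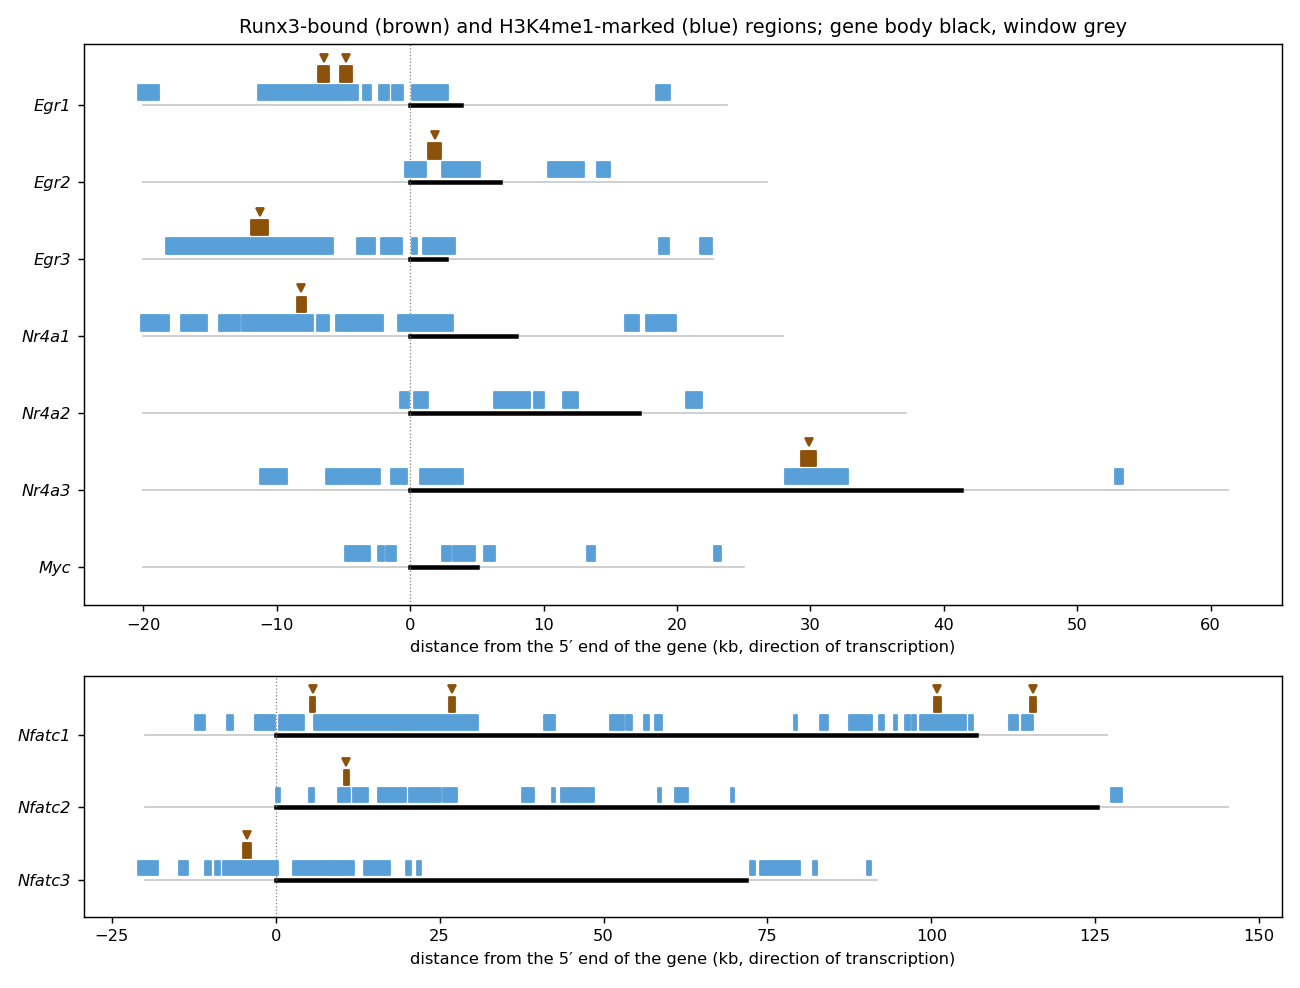
Runx3-bound regions (brown bars, with a triangle above each) and H3K4me1-marked regions (blue bars) around the 10 genes, by distance in kb from the 5′ end of the gene in the direction of transcription. Black lines are gene bodies and grey lines the windows with 20 kb on each side. The 12 Runx3-bound regions lie over or beside blue bars, and the rows of Nr4a2 and Myc have none.

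The EGR windows had the highest density of Runx3-bound regions of the families, with 4 regions in 133 kb or 3.0 per 100 kb, against 1.42 for NFAT, 1.07 for NR4A and 0 for Myc. Egr1 encodes the founding member of the family. Its gene lies at chr18:35020861-35024638 on the plus strand. The 2 Runx3-bound regions of Egr1 were intergenic, at chr18:35013928-35014787 and chr18:35015609-35016506, with midpoints 6504 and 4804 bp upstream of the transcription start site (TSS) and a gap of 821 bp between them. Both lay in full within 1 H3K4me1-marked region of 7474 bp (chr18:35009438-35016911), which was wider than 99.1% of that list. With 4.57 Runx3-bound regions per 100 kb, Egr1 was at a density that 0.747% of protein-coding genes reached or passed. This density rests on 2 regions in a short window of 43.8 kb. By count, 4.67% of protein-coding genes held as many as Egr1. Of its 7 marked regions 5 lay upstream. Joining neighbours within 1000 bp gave a block of 14.2 kb that held 5 marked regions and both Runx3-bound regions and spanned the TSS of Egr1.

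Egr2 differed from the other bound genes, since its Runx3-bound region did not overlap H3K4me1. Egr2, whose product limits the response of chronically stimulated T cells, lies at chr10:66998223-67004936 on the plus strand. The region of 986 bp (chr10:66999553-67000538) lay in an intron of Egr2, with its midpoint 1822 bp downstream of the 5′ end and 572 bp from the nearest of 6 annotated starts of protein-coding transcripts. It filled most of the gap between 2 marked regions, 148 bp away from the one (chr10:66997815-66999404) and 47 bp away from the other (chr10:67000586-67003483). Its sequence held 64 CpG dinucleotides and 58.0% G and C, against 7 to 23 CpG in the other 11 regions. Its 2 RUNX motifs were both TGCGGT, a variant found in the central window of 10.7% of all Runx3-bound regions and of none of the other 11 here. Marked regions of Egr2 numbered 4, the lowest count of the 10 genes, and covered 17.6% of its window.

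Egr3 acts beside Egr2 in T cells, and its gene lies at chr14:70477252-70479964 on the plus strand. Its Runx3-bound region (chr14:70465315-70466594) was intergenic, 11298 bp upstream, and at 1280 bp it was the widest of the 12, wider than 96.4% of the Runx3 list. It lay inside a marked region of 12509 bp (chr14:70458957-70471465), which was wider than 99.8% of the H3K4me1 list. H3K4me1 covered 50.3% of the window of Egr3, the largest share of the 10, which 0.899% of protein-coding genes reached. A further Runx3-bound region (chr14:70456570-70457466) had its midpoint 20.2 kb from the gene, just outside the window, and reached into the window with its edge, while the region at 11298 bp was the farthest from a gene body inside it.

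The NR4A windows differed among themselves, with 1 Runx3-bound region at Nr4a1, 1 at Nr4a3 and 0 at Nr4a2. Nr4a1 encodes Nur77, a widely used reporter of T cell receptor signalling, and lies at chr15:101097277-101105223 on the plus strand. Its Runx3-bound region of 714 bp (chr15:101088753-101089466) was intergenic, 8168 bp upstream, and lay inside a marked region of 5326 bp (chr15:101084638-101089963). The 9 marked regions of Nr4a1 covered 47.2% of the window, and 6 of them lay upstream. Joined within 1000 bp, they formed a block of 18.2 kb that ended before the TSS, and the TSS itself was in a further marked region. The only RUNX motif of the Nr4a1 region lay outside the central window printed above.

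Nr4a3 encodes Nor1 and lies at chr4:48058025-48099319 on the plus strand. Its Runx3-bound region of 1113 bp (chr4:48087334-48088446) was far inside the gene, in intron 7 of 7, with its midpoint 29865 bp downstream of the 5′ end. It lay within a marked region of 4712 bp (chr4:48086117-48090828) that stood alone, since the next marked regions were 25363 and 22415 bp away from the Runx3-bound region. In the locus maps this pair is the isolated blue and brown bar in the body of Nr4a3. The region held 4 RUNX motifs and 7 ETS motifs. H3K4me1 covered 19.0% of the window.

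Nr4a2 encodes Nurr1, best known from dopamine neurons and also induced in T cells, and lies at chr2:56959241-56976414 on the minus strand. It held 6 marked regions and no Runx3-bound region. H3K4me1 covered 13.1% of its window, the smallest share of the 10 and still above the median of 5.75% over all protein-coding genes. The widest marked region of Nr4a2 (chr2:56967465-56970117) measured 2653 bp and lay in the gene body, as did 4 of the 6. The nearest Runx3-bound region (chr2:57090531-57091777) was 115 kb upstream, in an intron of the neighbouring gene Gpd2, and overlapped H3K4me1.

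NFAT genes are long, and their windows held 59 of the 109 marked regions, 42 of them in gene bodies. Nfatc1 (chr18:80802944-80909810, minus strand) encodes the NFAT protein whose short form rises on T cell activation. It held 4 Runx3-bound regions, a number that 0.474% of protein-coding genes reached, and 25 marked regions, which 1.23% reached. The window of Nfatc1 is long, at 147 kb. By density per 100 kb the shares were less extreme, 2.46% for Runx3-bound and 9.01% for marked regions. The first Runx3-bound region (chr18:80903853-80904514) lay in intron 1 of 9, with its midpoint 5627 bp downstream of the 5′ end and 729 bp past a second annotated start of Nfatc1. It shared 16.2% of its length with H3K4me1 and otherwise lay in the gap before the next marked region, 974 bp away. The second region of Nfatc1 (chr18:80882522-80883394) was in intron 2, 26852 bp from the 5′ end, and lay in full within a marked region of 11948 bp. The third (chr18:80808352-80809401) was in intron 9, 100934 bp from the 5′ end, in full within a marked region of 6986 bp. The last (chr18:80793890-80794742) lay beyond the 3′ end of the gene, 115494 bp from the 5′ end, with 46.5% of its length marked. The 2 widest marked regions of Nfatc1, of 11948 and 13032 bp, were neighbours and joined into a block of 25.1 kb, the widest block at any of the 10 genes, and Runx3-bound regions touched both. H3K4me1 covered 40.3% of the window of Nfatc1, or 59.2 kb.

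Nfatc2 encodes the NFAT protein that is abundant in resting T cells, and it lies at chr2:168301910-168427157 on the minus strand. Its Runx3-bound region of 760 bp (chr2:168416042-168416801) was in an intron, 10736 bp downstream of the 5′ end and 556 bp upstream of an internal annotated start of Nfatc2. This was the one region of the 12 without any RUNX motif in its full length. It lay in a marked region of 1947 bp, while the widest marked region of Nfatc2 (chr2:168402468-168406896, 4429 bp) did not overlap Runx3. H3K4me1 covered 17.4% of the window in 17 regions, 16 of them in the gene body. Nfatc3, also present in resting T cells, lies at chr8:108582740-108654437 on the plus strand. Its Runx3-bound region of 1241 bp (chr8:108577697-108578937) was intergenic, 4423 bp upstream of the TSS. It lay in a marked region of 8246 bp (chr8:108574772-108583017) that reached over the TSS of Nfatc3. The window of Nfatc3 had 17 marked regions and 32.4% cover.

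Myc lies at chr15:61816946-61821929 on the plus strand and had no Runx3-bound region. Its 8 marked regions were narrow, from 479 to 1841 bp with a median of 702.5 bp, below the median of 979 bp of the whole list. The widest was at chr15:61812080-61813920. They covered 16.4% of the window of Myc. The nearest Runx3-bound region (chr15:61996042-61997076) was 180 kb downstream, in an intron of Pvt1. It overlapped H3K4me1 and had Myc as its nearest protein-coding TSS. With a margin of 50 kb in place of 20 kb, Nr4a2 and Myc still had none.

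H3K4me1 covered 28.1% of the 788 kb in the 10 windows, against 8.10% of the summed windows of all protein-coding genes. The median gene of the 10 had 25.7% cover and 8.5 marked regions, against 5.75% and 4 over all genes, with a median window of 52600 bp against 55400 bp. Ordered by cover, Egr3 and Nr4a1 stood highest, followed by Nfatc1, Egr1 and Nfatc3 at 32.4 to 40.3%. Nr4a3, Egr2, Nfatc2, Myc and Nr4a2 formed the lower part at 13.1 to 19.0%. Without replicates it cannot be said which neighbours in this order differ. Of all protein-coding genes, the 4429 with Runx3 had a median cover of 16.4% and the 17921 without it 3.88%. The 8 genes with Runx3 here ranged from 17.4 to 50.3%, and Nr4a2 and Myc, at 13.1 and 16.4%, were the lowest of the 10.

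**Figure D2:**
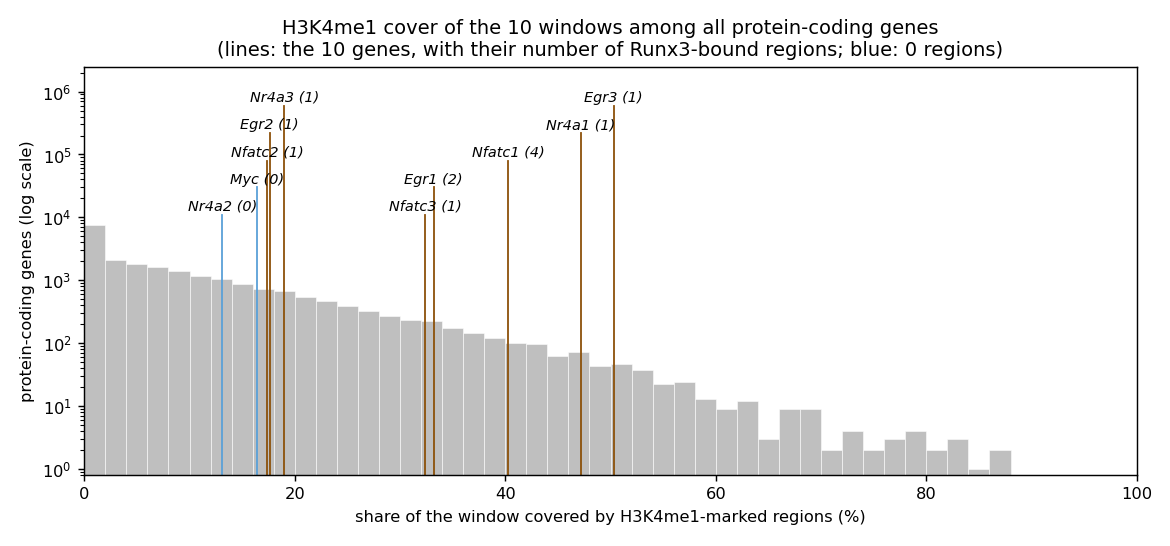
Share of each gene window covered by H3K4me1-marked regions, in percent. Grey bars count the 22350 protein-coding genes on a log scale, and vertical lines mark the 10 genes with their number of Runx3-bound regions in brackets, blue where it is 0. Egr3 and Nr4a1 stand near the upper end at 50.3 and 47.2%, and Nr4a2 is lowest at 13.1%.

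The marked regions that overlapped Runx3 numbered 10 of the 109, or 9.17% (5.06 to 16.1%), against 5.49% of the whole list, and their median width was 7230 bp, with a range of 1677 to 13032 bp. Those of 1677 bp at Nfatc1 and 1947 bp at Nfatc2 were the narrowest. The other 99 had a median of 1107 bp and reached 6041 bp at most. In the whole list the medians were 2260 bp with Runx3 and 946 bp without. A wide region has more room to overlap, and the part of width in this difference was not tested. In 6 of the 8 bound genes the widest marked region of the window was one that overlapped Runx3, the exceptions being Egr2 and Nfatc2. Among all 4233 genes with regions of both lists this was so in 44.5%, and in 43.8% of those with at least 4 marked regions. The widest region held a median of 26.9% of the summed marked width in those 8 genes.

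**Figure D3:**
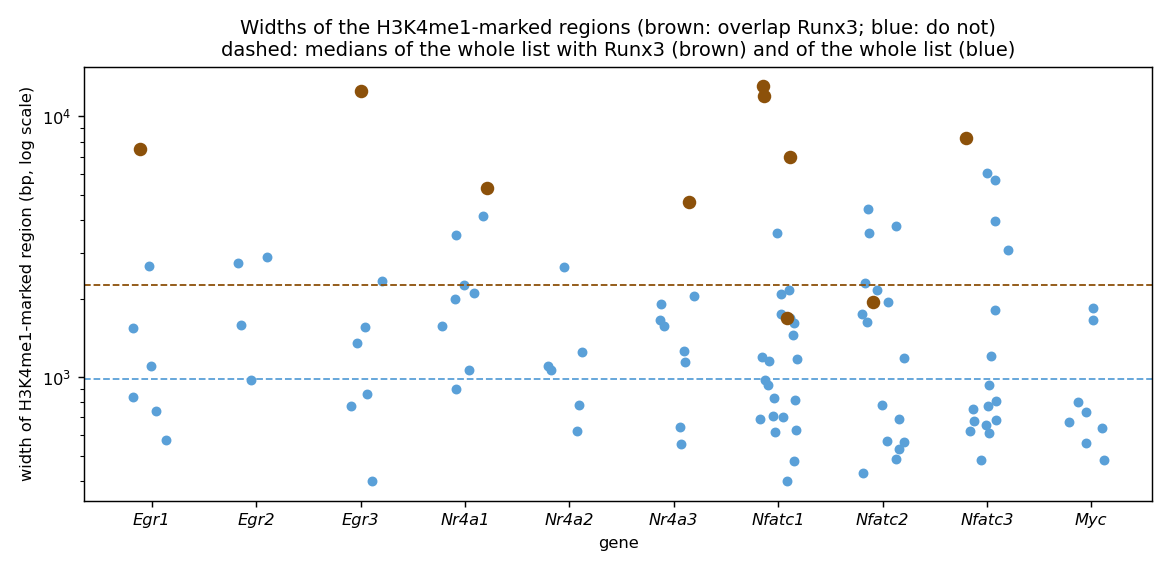
Width in bp, on a log scale, of the 109 H3K4me1-marked regions by gene. Each point is 1 region, brown where it overlaps a Runx3-bound region and blue where it does not, and points are spread sideways for visibility. Dashed lines are the medians of the whole list, 979 bp for all regions (blue) and 2260 bp for those that overlap Runx3 (brown). At Egr1, Egr3, Nr4a1, Nr4a3, Nfatc1 and Nfatc3 the top point is brown.

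At the 5′ ends of the genes H3K4me1 was often interrupted. The annotated 5′ end lay inside a marked region at Egr2, Nr4a1, Nfatc2 and Nfatc3, or 4 of 10 genes, against 17.7% of all protein-coding genes. At Egr1 the next marked regions were 557 bp upstream and 114 bp downstream of the 5′ end. The corresponding distances were 617 and 121 bp at Egr3, 132 and 292 bp at Nr4a2, 277 and 735 bp at Nr4a3, and 163 and 467 bp at Nfatc1. These 5 genes had a marked region within 1 kb on each side of an unmarked 5′ end, an arrangement found at 25.7% of all protein-coding genes. At Myc the gap was wider, 1057 bp upstream and 2357 bp downstream.

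Among the Runx3-bound regions 11 of 12 overlapped H3K4me1, or 91.7% (64.6 to 98.5%), against 78.8% of the whole list. The midpoint was inside a marked region in 9 of 12 (75.0%, 46.8 to 91.1%), the others being at Egr2 and the first and last regions of Nfatc1. Widths ran from 662 to 1280 bp with a median of 885.5 bp, against 851 bp for the list. All 12 had the gene itself as the nearest protein-coding TSS, as did 96 of the 109 marked regions. Regions were chosen by nearness to the gene, which favours this outcome, and no share over all genes is given. Of the 12, 6 lay in introns and 6 were intergenic, also without a share of the list. More than 5 kb from the nearest TSS were 7 of 12, or 58.3% (32.0 to 80.7%), against 63.9% of the list, and within 1 kb were 3 (25.0%) against 20.7%. Those 3 were the intronic regions of Egr2, Nfatc1 and Nfatc2 beside internal starts.

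A RUNX motif was present in 11 of 12 regions (91.7%), against 88.8% of all Runx3-bound regions, and in the central 200 bp of 8 (66.7%, 39.1 to 86.2%), against 66.0% of all. Windows of the same length 5 kb to either side held it in 27.7%. The share at these genes was near that of the whole list. The 12 regions held 34 RUNX motifs, of which 14 were TGTGGC, 13 TGTGGT, 5 TGCGGT and 2 TGCGGC. The second region of Nfatc1 had most with 8, the third had 5, and those of Egr3 and Nr4a3 had 4. An ETS motif was present in all 12 regions, against 95.0% of the list, and in the centre of 8 (66.7%), against 63.8% of the list and 43.0% of the windows 5 kb away.

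The NFAT motif TGGAAA, searched on both strands, shares the letters GGAA with the ETS words but cannot match at the same place. It was present in 8 of 12 regions (66.7%), against 55.8% of the list. In the central 200 bp it was present in 3 (25.0%, 8.89 to 53.2%), against 15.8% of the list and 19.2% of the windows 5 kb away. The third region of Nfatc1 held 5 of these motifs and that of Egr2 held 3. The AP-1 motif, TGACTCA or TGAGTCA, was found in 1 of 12 regions, the farther one of Egr1, which held 2 matches, against 16.5% of the list. In the centre it was found in 0 of 12, an interval of up to 24.2%, against 4.58% of the list. A match describes the letters and does not show binding.

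**Figure D4:**
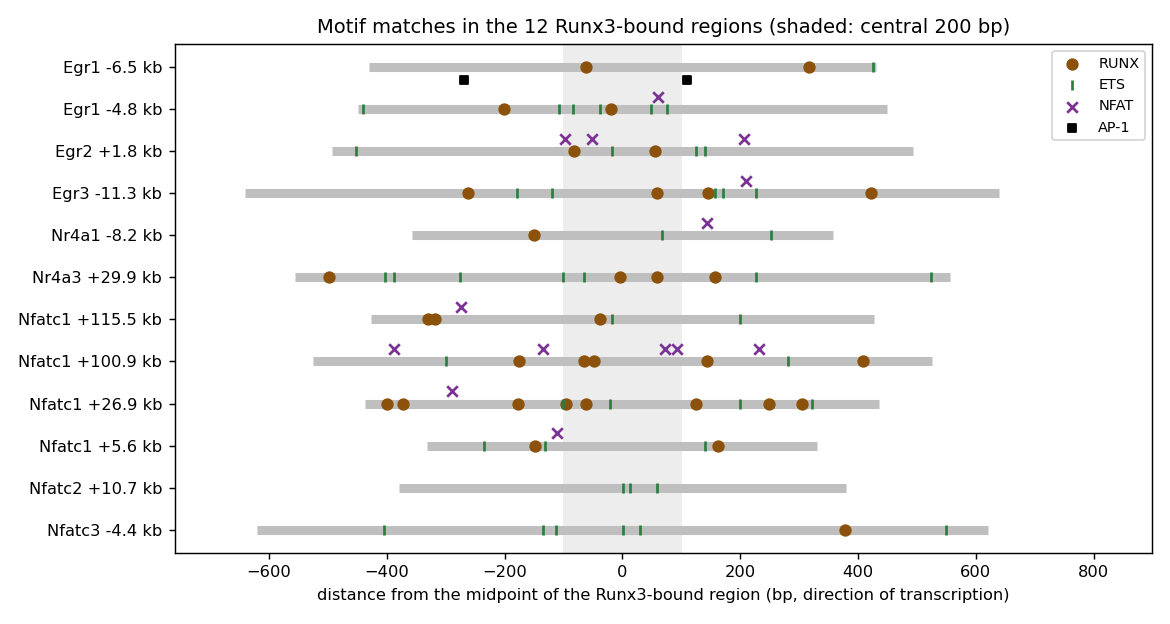
Motif matches along the 12 Runx3-bound regions, by distance in bp from the midpoint in the direction of transcription. Grey bars are the regions, each named by its gene and its distance from the 5′ end, and shading marks the central 200 bp. Symbols stand for RUNX (brown circles), ETS (green ticks), NFAT (purple crosses) and AP-1 (black squares). The Nfatc2 row has no brown circle, and the row of Nfatc1 at 26852 bp from the 5′ end has 8.

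The same windows were read for 42 other genes of the route from calcium to NFAT, of the EGR family and its partners and of the MYC network, together with further regulators of T cell responses (Tox, Tox2, Cblb, Dgka, Dgkz, Rnf128 and Bhlhe40). All 42 were found in the annotation, 20 of them (47.6%) with a Runx3-bound region and 41 with an H3K4me1-marked region, with a median cover of 17.5%. Of the further regulators, a subset set apart after the values were seen, all but Rnf128 and Bhlhe40 held Runx3. Over all protein-coding genes 19.8% held Runx3 and 73.6% H3K4me1, and the median cover was 5.75%. The windows of the 42 genes ran from 42.5 to 434 kb, and long windows held Runx3 more often, as given above. Their windows held 48 Runx3-bound regions, and 47 of these overlapped H3K4me1, the exception being that of Mnt, a MYC antagonist. Among the genes with most Runx3-bound regions, Tox, a nuclear factor of T cell development and exhaustion, had 6, and Ppp3cc, a catalytic subunit of calcineurin, had 4. The calcium sensor Stim1, the calcium channels Itpr1 and Itpr2 and the ubiquitin ligase Cblb, an inhibitor of T cell activation, had 3 each. The 22 genes with 0 were Nfat5, the calcineurin subunit Ppp3cb, the calcineurin inhibitors Rcan1, Rcan3 and Cabin1, the NFAT kinases Gsk3b and Csnk1a1, the scaffolds Homer2 and Homer3, the calcium entry genes Orai2 and Stim2, the calcium release channel Itpr3, Egr4 and the EGR corepressors Nab1 and Nab2, the ubiquitin ligase Rnf128, Mxd1, Mlx, Mycn, Mycl1 and Zbtb17 of the MYC network, and the repressor Bhlhe40. Egr4, the remaining EGR gene, had 1 marked region and 1.31% cover, against 17.6 to 50.3% for Egr1 to Egr3. Homer2 had no marked region.

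The identity of the cells was checked on marker genes in the same windows. All 5 T cell markers (Cd8a, Cd8b1, Cd3d, Cd3e and Cd3g) held both Runx3 and H3K4me1, with 9 to 15 marked regions and 29.4 to 50.4% cover. Cd3d, Cd3e and Cd3g lie on chromosome 9 and had the same widest marked region, of 3497 bp. Their windows thus shared regions, and their counts are not independent. Cd8a and Cd8b1 both lie on chromosome 6. The 5 B cell markers also carried H3K4me1, with 8 to 26 regions and 19.2 to 53.4% cover, and 3 of them held Runx3. Of 4 myeloid markers 3 carried H3K4me1 and Lyz2 had none. Among them Itgam held 1 Runx3-bound region and 21 marked regions with 31.2% cover, and the other 3 held no Runx3. Of the 2 NK cell markers, Ncr1 had no region of either list, while Klrb1c had 12 marked regions, 23.5% cover and no Runx3. The 3 erythroid markers had 2 to 7 marked regions, 2.11 to 16.6% cover and no Runx3. A mark is not expression, and the part of other cells left in the preparation in the H3K4me1 cover of the 10 genes was not tested.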

How the data were processed

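ChIP-seq for Runx3 and H3K4me1 was done on CD8-TC of mouse spleen. Per the labels and the paper's methods, the authors aligned reads of 40 to 42 bp to mm9 with ELAND. The submitters' processing notes name CASAVA 1.6 and 1.7. Both repeats were then joined, and peaks were called with MACS against NIS. The deposited lists give positions in base pairs, with no score, so no stricter threshold and no depth could be applied. Starts were moved by 1 bp, as in a genome browser. Positions were used with the NCBIM37 genome, which is mm9, and the GENCODE annotation of that build (22350 protein-coding genes). The 5′ end is that of the gene as annotated. Overlap required 1 bp, neighbours were joined within 1000 bp, and motifs were searched on both strands. The procedure was checked on simulated regions with known positions. All 10 genes, every Runx3-bound region and the widest marked region of each window were named. In the further list of 42 genes, those with the 5 largest counts of Runx3-bound regions (ties included) and those with 0 were named, apart from items that are not reported here. Members and lists were chosen with earlier results of these data known. Alternatives changed the window, the overlap, the width and the TSS set. Python 3.11.15 with numpy 2.4.6, pandas 2.3.3 and matplotlib 3.10.9 was used.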

Additional observations from a re-analysis of the deposited data

How the results depend on the processing

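Of 34 alternatives tried on 9 main values, 26 stayed within 1.5 times the reported value or, for shares of the 12 Runx3-bound regions, within its 95% interval. Taking the gene body alone, in place of a margin of 20 kb, left 6 Runx3-bound regions at 4 genes, 57 H3K4me1-marked regions, and 8.52% of all protein-coding genes with Runx3. A margin of 50 kb raised that last share to 30.8%, with 16 Runx3-bound regions at 8 genes and 163 marked regions. Marked regions fell to 56 when neighbours within 1000 bp were merged and to 63 when those under the median width of the list were left out. Counting 5′ ends within 1000 bp of a marked region gave 9 genes, all but Myc. The share of all protein-coding genes at that distance is not given, so this count is a description alone. The share of the 12 Runx3-bound regions that overlapped H3K4me1 was 75.0 to 91.7% over 4 alternatives. For single genes, 77 of 100 alternative counts stayed within 1.5 times the reported count, that limit included, and 23 moved further. No paired analysis was possible because peaks were called after the repeats had been joined, and no repeat could be left out. With 12 regions, an interval such as 39.1 to 86.2% leaves a share poorly determined.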
